A study of Mus musculus with 15 samples.

Results

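Toll-like receptor genes and the genes of their partner proteins were followed in mice whose microglia were made to lose Atg7 by a tamoxifen-inducible Cre. The group holds 10 genes of the 54532 in the bulk table, chosen by name. They are the receptor genes Tlr2, Tlr3, Tlr4, Tlr7, Tlr9 and Tlr13, the co-receptor gene Cd14, the accessory pair Ly86 and Cd180, and the chaperone gene Unc93b1. All 10 passed the filter on low counts in bulk and all 10 had UMIs in both single-cell libraries. Atg7 encodes an enzyme needed for autophagosome formation.

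Bulk RNA-seq covered 13 forebrain libraries of 5xFAD mice, a transgenic model of Alzheimer's disease that forms amyloid plaques. The 7 cKO libraries had the genotype Cx3cr1CreER;ATG7FF;5xFAD and the 6 control libraries ATG7FF;5xFAD. Single-cell RNA-seq covered forebrain microglia sorted as CD11b-high and CD45-low from mice without 5xFAD, as 1 cKO library (ATG7FF;Cx3cr1CreER, pooled from 4 forebrains) and 1 control library (ATG7FF, pooled from 3 forebrains). Every group carried the floxed alleles on the C57BL/6 strain, was given tamoxifen (1.5 mg) when 2 months old and sampled at 8 months. Cre stands under the Cx3cr1 locus, which is also active in border macrophages and monocytes. Controls had neither Cre nor the insertion in Cx3cr1, so effects of the insertion and of Atg7 loss cannot be told apart. Whether every bulk library came from its own mouse is not stated, and the p-values cover the spread between libraries, which may be technical.

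The genes lie apart in the genome, apart from 2 chromosomes that hold a pair each. On the GRCm38 assembly (mm10), with GENCODE M21, Ly86 spans chr13:37345208-37419036 and Cd180 chr13:102693558-102739629, both on the plus strand. Tlr7 spans chrX:167304929-167330558 on the minus strand and Tlr13 chrX:106143204-106160493 on the plus strand. Single genes are Tlr2 at chr3:83836272-83841767, Tlr4 at chr4:66827584-66930284, Tlr3 at chr8:45395665-45411080, Tlr9 at chr9:106222598-106226883, Cd14 at chr18:36725067-36726798 and Unc93b1 at chr19:3935186-3949340. Exons of Tlr3 share 381 bases with the antisense gene Gm45542, which is 7.32% of its exonic length, and exons of Cd180 share 182 bases (4.04%) with Mast4. For the bulk counts no strand setting is given in the sources used here, and reads of those stretches cannot be told apart.

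Toll-like receptors are membrane proteins that recognise microbial molecules and products of damaged cells. TLR2 and TLR4 act at the cell surface, with CD14 handing ligands to both, and TLR3, TLR7, TLR9 and TLR13 read nucleic acids inside endolysosomes, to which UNC93B1 escorts them. Most signal through MYD88, IRAK kinases and TRAF6 to NF-kB and interferon regulatory factors, and in the brain microglia are the main cells that carry them. TLR3 instead uses the adaptor TICAM1 and is also known from astrocytes and neurons.

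RefSeq promoter windows of 250 bases before the transcription start (GRCm38.p6) matched 6 of the 10 genes, Tlr2, Tlr3, Tlr9, Tlr13, Ly86 and Cd180. No entry was used for Tlr4, Tlr7, Cd14 or Unc93b1. The 4 windows printed here, each 5′ to 3′ on the gene's own strand, belong to the accessory pair with the lowest log2 changes in bulk (Ly86 and Cd180) and to 2 endosomal receptors with unlike changes (Tlr13 and Tlr9). Capitals mark GAGGAA, the core bound by the myeloid factor PU.1, searched on both strands.
Ly86, chr13:37345095-37345344 (plus strand): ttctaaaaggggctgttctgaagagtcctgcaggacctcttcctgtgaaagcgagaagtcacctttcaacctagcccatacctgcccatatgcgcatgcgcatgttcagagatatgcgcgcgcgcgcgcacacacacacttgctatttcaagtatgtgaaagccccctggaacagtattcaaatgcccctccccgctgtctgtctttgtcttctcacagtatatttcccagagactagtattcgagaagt
Cd180, chr13:102693308-102693557 (plus strand): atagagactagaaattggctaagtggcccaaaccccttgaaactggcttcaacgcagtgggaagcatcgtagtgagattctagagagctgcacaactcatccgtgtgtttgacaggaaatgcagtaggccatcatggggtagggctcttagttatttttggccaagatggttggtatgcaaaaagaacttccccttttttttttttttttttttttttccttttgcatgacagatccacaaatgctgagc
Tlr13, chrX:106143025-106143274 (plus strand): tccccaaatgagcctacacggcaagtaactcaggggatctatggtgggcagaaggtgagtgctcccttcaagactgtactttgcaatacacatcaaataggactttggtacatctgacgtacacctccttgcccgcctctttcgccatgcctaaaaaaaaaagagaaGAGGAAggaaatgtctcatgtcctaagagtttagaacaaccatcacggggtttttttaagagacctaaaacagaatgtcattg
Tlr9, chr9:106222348-106222597 (plus strand): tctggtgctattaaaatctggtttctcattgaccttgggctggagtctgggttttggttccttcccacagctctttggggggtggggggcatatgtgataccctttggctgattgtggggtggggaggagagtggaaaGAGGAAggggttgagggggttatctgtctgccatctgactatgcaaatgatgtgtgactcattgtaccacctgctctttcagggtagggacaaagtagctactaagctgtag

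GAGGAA occurred 83 bases before the Tlr13 start and 112 bases before the Tlr9 start, and not in the other 4 windows. Of all 32851 promoter windows of this length 23.3% hold it. The AP-1 motif TGANTCA, also searched on both strands, was 58 bases before the Tlr9 start and in none of the other 5 windows, and 6.75% of all windows hold it. These matches are descriptions of letters, not of bound sites. The RefSeq start lies 137 bases from the GENCODE start for Ly86 and 71 bases for Tlr13, and at the GENCODE start for Cd180 and Tlr9.

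Total counts ran from 16658707 to 22355512 per bulk library. Atg7 itself had 24.3 ± 1.32 CPM in cKO forebrains (SD, n = 7) and 24.3 ± 2.09 CPM in control forebrains (SD, n = 6). In the sorted libraries Atg7 had 18.1 CPM in cKO and 15.8 CPM in control microglia. All brain cells contribute to the first value and the second counts 3′ ends, so neither checks the deletion. Bulk CPM are counts scaled to a common library size after TMM normalization, and log2 changes are cKO minus control. CPM of the sorted libraries are UMIs scaled to the summed UMIs of the cells used, without TMM.

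In bulk forebrain 9 of the 10 genes had log2 changes below 0 in cKO libraries, with a median of -0.51, against 0.0016 over all 16956 genes tested. By edgeR's quasi-likelihood test only Ly86 fell at an adjusted p under 0.05. That is 1 of 10 genes, where 0.277% of all genes fell, 0.0531% rose and 0.33% did either. Of the 10 genes 8 were lower at an unadjusted p under 0.05, against 4.19% of all genes, and none was higher, against 3.52%. In 7 genes every cKO library lay below the control median, against 4.65% of all genes. Tlr9 was the gene above 0.

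**Figure D1:**
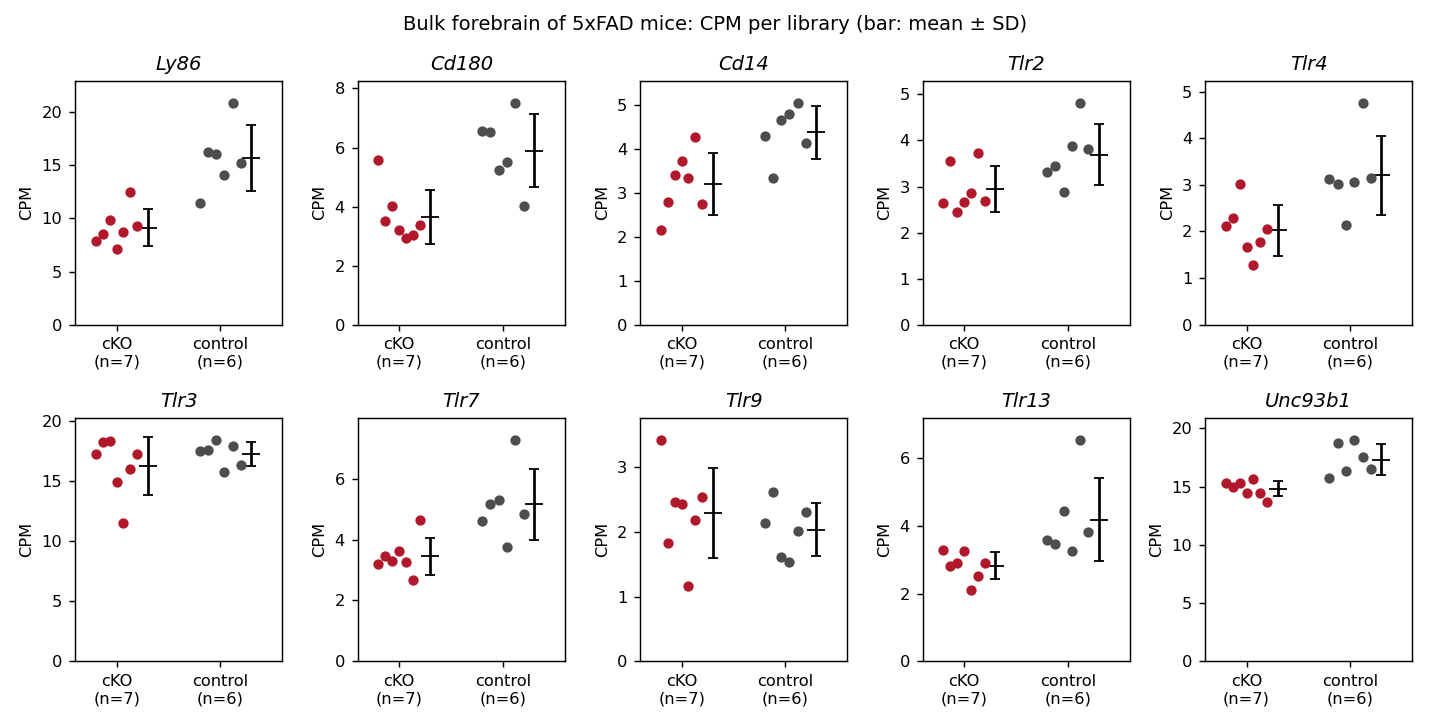
CPM of the 10 genes in each bulk forebrain library, with 7 cKO libraries in red at the left and 6 control libraries in grey at the right of each panel; the bar beside each group gives the mean and SD. All cKO libraries lie below all control libraries for Unc93b1 alone, while the Tlr3 and Tlr9 groups lie across each other.

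LY86 (also called MD-1) is a secreted protein that binds CD180, and this complex resembles TLR4 with its partner MD-2 but lacks the signalling domain. Ly86 stood at 7.16, 8.72 and 12.5 CPM (lowest, median and highest) in the 7 cKO libraries and at 11.5, 15.7 and 20.8 CPM in the 6 control libraries. One cKO library, the sixth, reached into the control range. The mean was 9.13 ± 1.72 CPM in cKO and 15.7 ± 3.09 CPM in control forebrains (SD, n = 7 and 6). The log2 change was -0.77 (SE 0.13, 95% interval -1.04 to -0.51; edgeR adjusted p = 0.00414), which is 1.71-fold lower in cKO. Ly86 was called in all 18 alternative fits, with adjusted p from 5.90e-06 to 0.0205.

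CD180 (RP105) is the membrane partner of LY86 and a Toll-like receptor homologue that tempers TLR4 signals in myeloid cells. Cd180 stood at 2.92, 3.38 and 5.57 CPM in cKO libraries and at 4.00, 6.01 and 7.50 CPM in control libraries. cKO libraries 1 and 3, at 5.57 and 4.01 CPM, lay above the lowest control library. The log2 change was -0.68 (SE 0.16, interval -1.01 to -0.35), and it did not pass the test (edgeR adjusted p = 0.0836). The change passed in 4 of 18 alternatives, whose adjusted p ranged from 0.00490 to 0.257. Without the first cKO library the change was -0.82 and the edgeR adjusted p 0.00844, and without the sixth control library they were -0.76 and 0.0342.

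CD14 is a lipid-anchored protein that delivers lipopolysaccharide to TLR4. Cd14 stood at 2.16, 3.33 and 4.26 CPM in cKO libraries and at 3.34, 4.48 and 5.04 CPM in control libraries. The groups overlapped, with every cKO library below the control median. The log2 change was -0.45 (SE 0.15, interval -0.77 to -0.14; edgeR adjusted p = 0.439).

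Of the surface receptors, TLR4 senses lipopolysaccharide and TLR2 senses lipoproteins. Tlr4 stood at 1.29, 2.06 and 3.01 CPM in cKO libraries and at 2.14, 3.10 and 4.75 CPM in control libraries, a log2 change of -0.65 (SE 0.19, interval -1.05 to -0.26; edgeR adjusted p = 0.306). Tlr2 stood at 2.45, 2.69 and 3.72 CPM in cKO libraries and at 2.89, 3.64 and 4.81 CPM in control libraries, a log2 change of -0.32 (SE 0.15, interval -0.63 to -0.02; edgeR adjusted p = 0.639). Neither passed the test, and in both the groups overlapped. These low genes rest on 22 to 86 reads per library, which limits what a test at this depth can resolve.

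Among the endosomal receptors, Tlr7 and Tlr13 had changes of like size and Tlr3 and Tlr9 did not. TLR7 reads single-stranded RNA, and Tlr7 stood at 2.68, 3.29 and 4.64 CPM in cKO libraries and at 3.75, 5.02 and 7.27 CPM in control libraries. Its log2 change was -0.58 (SE 0.15, interval -0.89 to -0.27; edgeR adjusted p = 0.174). TLR13 reads bacterial ribosomal RNA in mice, and Tlr13 stood at 2.11, 2.90 and 3.28 CPM in cKO libraries and at 3.25, 3.70 and 6.53 CPM in control libraries. Its log2 change was -0.56 (SE 0.16, interval -0.90 to -0.22; edgeR adjusted p = 0.316). In both genes every cKO library lay below the control median, and neither passed the test.

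TLR3 reads double-stranded RNA, and TLR9 reads unmethylated CpG DNA. Tlr3 stood at 11.5, 17.3 and 18.4 CPM in cKO libraries and at 15.8, 17.6 and 18.4 CPM in control libraries, a log2 change of -0.09 (SE 0.09, interval -0.27 to 0.10; edgeR adjusted p = 0.836). Tlr9 stood at 1.17, 2.43 and 3.42 CPM in cKO libraries and at 1.54, 2.07 and 2.62 CPM in control libraries, a log2 change of 0.18 (SE 0.20, interval -0.24 to 0.61; edgeR adjusted p = 0.846). The lower bound of the Tlr3 interval, -0.27, is nearer to 0 than the log2 change of Tlr4, Tlr7 or Tlr13. The differences between receptors were not tested.

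UNC93B1 is the endoplasmic reticulum protein that carries the nucleic acid receptors to endolysosomes. Unc93b1 stood at 13.7, 15.0 and 15.7 CPM in cKO libraries and at 15.7, 17.0 and 19.0 CPM in control libraries. All cKO libraries lay below all controls, as for 0.313% of all genes (0.13% had all cKO libraries above), although the highest cKO and the lowest control library both stood at 15.7 CPM. The log2 change was small, -0.22 (SE 0.07, interval -0.37 to -0.08), and did not pass the test (edgeR adjusted p = 0.364).

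**Figure D2:**
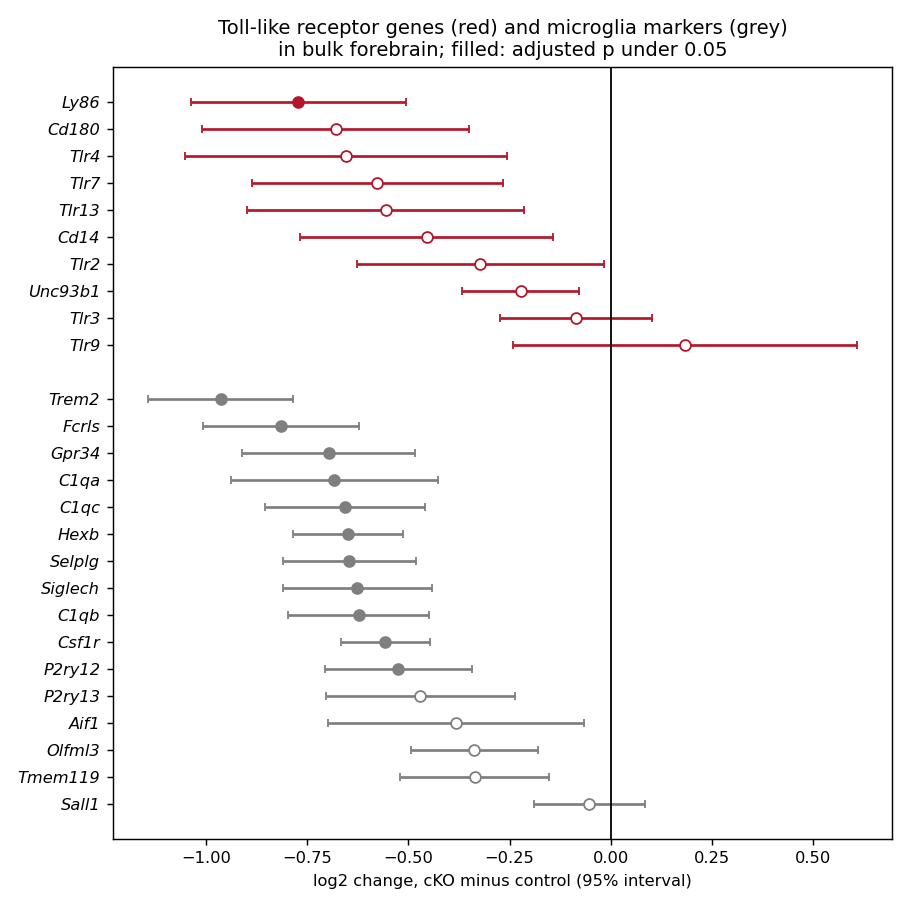
Log2 change with its 95% interval for the 10 genes (red, above) and 16 microglia markers (grey, below) in bulk forebrain, cKO minus control, each set ordered by size. Filled points passed an adjusted p of 0.05. The markers run from -0.96 to -0.05, a range that holds 9 of the 10 genes, and Tlr9 lies above 0.

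Microglia markers were lower in the same libraries. Of 16 markers 11 fell by edgeR's test, with changes from -0.96 to -0.05 and a median of -0.62, and all 16 were below 0. The mean log2 CPM of the 16 was 4.37 ± 0.05 in cKO (range 4.32 to 4.44) and 4.94 ± 0.08 in control forebrains (range 4.88 to 5.10), a difference of -0.57 with no overlap. In bulk tissue, fewer microglia and less of these RNAs per cell cannot be told apart. Of 7 border macrophage markers tested none passed by edgeR or DESeq2, with 0 lower and 1 higher at an unadjusted p under 0.05. The log2 changes of these markers ran from -0.57 to 1.14, with 5 of the 7 below 0. Their summed level was 13.9 to 15.2 CPM in cKO and 12.9 to 16.4 CPM in control libraries, and their part in the results was not tested. Of 7 monocyte markers, another cell type that carries Cd14, Tlr2 and Tlr4, 1 passed the low-count filter and none was called. The tested marker had a log2 change of -0.26 and was lower at an unadjusted p under 0.05 by edgeR. The summed level of the 7 was 12.0 to 19.1 CPM in cKO and 17.4 to 21.8 CPM in control libraries. For 7 neutrophil markers, 2 of them tested and none called, it was 0.458 to 4.38 CPM in cKO and 2.03 to 7.16 CPM in control libraries. The 2 tested had log2 changes of -1.24 and -0.80, and 1 of them was lower at an unadjusted p under 0.05 by edgeR. No marker of these 3 lists was at 0 in all libraries, and the part of monocytes and neutrophils was not tested either.

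The log2 level of each gene was also set against the marker mean of the same library. Group means then differed by -0.21 to 0.10 for 6 genes and by 0.24 to 0.70 for 4. On this log2 scale the cKO minus control difference was -0.21 for Ly86, -0.12 for Cd180, -0.10 for Tlr4, -0.0035 for Tlr7, 0.03 for Tlr13 and 0.10 for Cd14. These differences were smaller than the SD between control libraries of the same gene, 0.18 to 0.31. That SD describes single libraries and not the error of a difference of means, so it does not show that the means are alike. The difference was 0.24 for Tlr2, 0.35 for Unc93b1, 0.46 for Tlr3 and 0.70 for Tlr9. For Tlr2 it was below the SD between cKO libraries, 0.26. For Unc93b1 every cKO library (-0.58 to -0.41) lay above every control library (-0.96 to -0.68), and for the other 9 genes the groups overlapped. These values describe levels relative to markers that themselves fell, and no test was run on them.

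**Figure D3:**
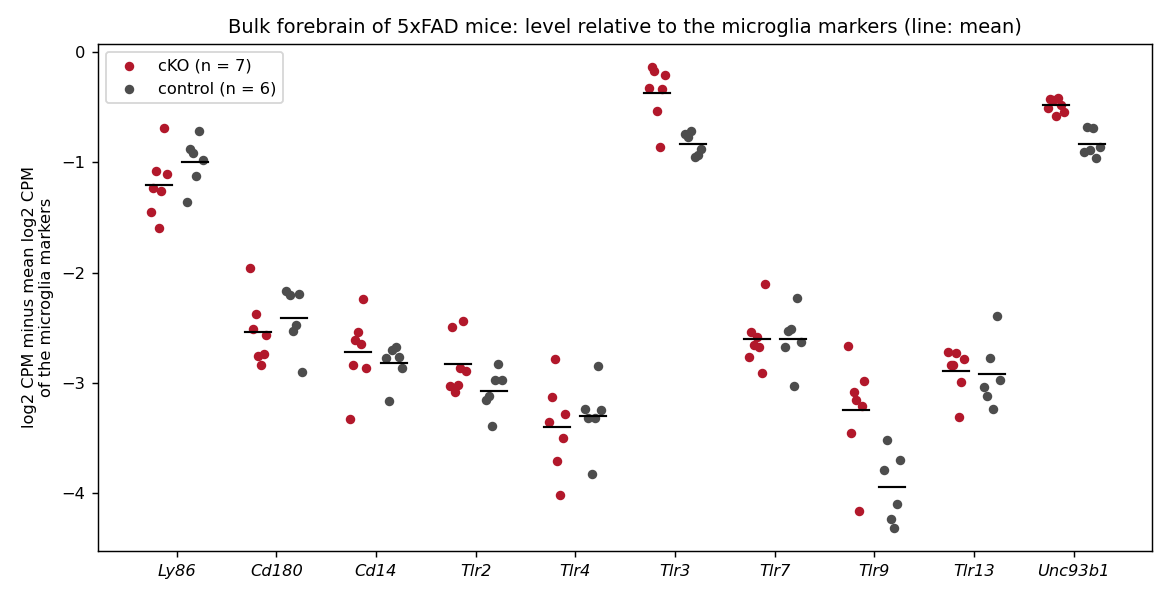
Log2 CPM of each gene minus the mean log2 CPM of 16 microglia markers in the same bulk library, with cKO libraries in red at the left and control libraries in grey at the right; lines are group means. Ly86, Cd180, Tlr4, Tlr7, Tlr13 and Cd14 overlap, with group means that differ by -0.21 to 0.10. Unc93b1 is separated with cKO higher, and Tlr3 and Tlr9 have higher cKO means.

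Per kilobase of exon, the order of levels in cKO forebrain was Unc93b1 (4.90 ± 0.22 RPKM), Tlr3 (3.12 ± 0.46), Ly86 (2.51 ± 0.47), Cd14 (1.85 ± 0.40), Tlr2 (0.977 ± 0.16), Tlr7 (0.845 ± 0.15), Cd180 (0.812 ± 0.20), Tlr9 (0.658 ± 0.20), Tlr13 (0.656 ± 0.10) and Tlr4 (0.365 ± 0.10 RPKM; SD, n = 7). In control forebrain it was Unc93b1 (5.71 ± 0.44 RPKM), Ly86 (4.31 ± 0.85), Tlr3 (3.32 ± 0.19), Cd14 (2.53 ± 0.35), Cd180 (1.31 ± 0.27), Tlr7 (1.26 ± 0.29), Tlr2 (1.23 ± 0.22), Tlr13 (0.971 ± 0.28), Tlr9 (0.584 ± 0.12) and Tlr4 (0.577 ± 0.15 RPKM; SD, n = 6). Neighbours in the order from Tlr2 to Tlr13 in cKO forebrain, and from Cd180 to Tlr13 and from Tlr9 to Tlr4 in control forebrain, differed by less than their spread. Tlr3 stood above Ly86 in cKO forebrain, the reverse of the control order.

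Correlations of members between libraries of a genotype were also read, though counting noise at 20 to 421 reads per library pulls them toward 0. They thus cannot decide whether the members vary together. Over the 45 pairs of members, Pearson's r of the deviations from group means had a median of 0.192, from -0.507 for Tlr9 with Cd14 to 0.701 for Tlr7 with Tlr13. With the mean of the microglia markers r was 0.75 for Tlr13, 0.47 for Cd180 and 0.43 for Tlr7, and from -0.08 to 0.35 for the other 7. The genes with the most similar deviations, among 16956, were Cntn5 (0.944) and Sirt1 (0.922) for Ly86, the microglial receptor gene Cd33 (0.896) after 4732487G21Rik (0.940) for Cd180, and Cd300a (0.885) for Tlr2. For Tlr3 they were Samd12 (0.948), for Tlr4 Ppp3cb (0.921), for Tlr7 Msl2 (0.907), for Tlr9 Zfp934 (0.907), for Tlr13 Tspan6 (0.920), for Cd14 2810032G03Rik (0.925) and for Unc93b1 Zfp296 (0.859). These are descriptions over 13 libraries that share depth and dissection, and the best match among many genes is high by selection.

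Of the other pathway genes tested in bulk forebrain 2 passed the test. Of 11 tested genes for receptor folding, trafficking and processing, Ctss fell. It encodes cathepsin S, a protease of endolysosomes, and stood at 51.0, 56.4 and 61.7 CPM in cKO libraries and at 84.9, 93.3 and 108 CPM in control libraries, with no overlap. Its log2 change was -0.74 (SE 0.06; edgeR adjusted p = 5.91e-08). Of 11 transcription factor genes, Irf8 fell, a regulator of microglial identity that also acts below these receptors. Irf8 stood at 5.14, 6.21 and 6.33 CPM in cKO libraries and at 7.35, 7.94 and 9.41 CPM in control libraries, with no overlap, a log2 change of -0.47 (SE 0.10; edgeR adjusted p = 0.0304). The Irf8 call was lost in 10 of the 13 fits that left out 1 library, with edgeR adjusted p from 0.0536 to 0.131. It was kept without control library 1 or 2 or cKO library 5.

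None of 20 tested adaptor and kinase genes passed by edgeR or by DESeq2, and 1 was lower at an unadjusted p under 0.05. The median change of that list was -0.03, and Myd88, the shared adaptor, had a log2 change of 0.08. None of 14 negative regulators passed by either tool, with 1 lower and 1 higher at an unadjusted p under 0.05. Of 8 tested induced targets, genes that these receptors switch on, none passed by edgeR, 1 did by DESeq2 and 2 were lower at an unadjusted p under 0.05. Among them the chemokine gene Ccl3 had 0.909 ± 0.507 CPM in cKO and 2.06 ± 0.382 CPM in control libraries (SD, n = 7 and 6), a log2 change of -1.18 (SE 0.28; edgeR adjusted p = 0.0836), named after its values were seen. Of 6 tested receptors and ligand-binding partners outside the 10, none passed by edgeR or DESeq2 and 2 were lower at an unadjusted p under 0.05.

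In sorted microglia of mice without amyloid, none of the genes with enough UMIs to compare differed by 1.5-fold between the libraries. The cKO library kept 8874 cells of 9840 barcodes with a median of 4531.5 UMIs, and the control library 6243 of 6633 with a median of 1392 UMIs. In both, 99.8% of cells had 3 or more UMIs of the microglia markers. For B cell markers it was 21.6% of cKO and 2.03% of control cells, and for astrocyte markers 7.57% and 0.336%, at unlike depth. Ighm made most of the B cell marker level (280 of 332 CPM in cKO, 287 of 340 CPM in control). Cd79a had 2 UMIs in cKO and 0 in control cells. An alternative without cells holding 2 or more UMIs of another type's markers kept 4156 cKO and 5357 control cells. Barcodes shared by the libraries numbered 22, of which 11 passed the filter in both. Each genotype has a single library, so these ratios have no replicates and no p-values, and all intervals cover counting error only. Of the 10 genes 9 had at least 20 CPM, and 0 of the 9 were past 1.5-fold, where 1.43% of 6769 genes at that level were lower and 1.88% higher by that much. Of the 9 genes 5 had lower CPM in the cKO library, against 38.4% of all genes, with a median log2 ratio of -0.07 for the 9 and 0.05 for all. The 16 microglia markers had a median of -0.13, with 14 of 16 below 0.

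Tlr2 had the highest ratio and Tlr4 the lowest. Tlr2 had 83.0 CPM in cKO and 60.7 CPM in control microglia, a ratio of 1.37 (95% interval 1.25 to 1.50), and the ratio lay between 1.27 and 1.44 in 8 alternatives. Tlr4 had 35.3 CPM in cKO and 43.7 CPM in control microglia, a ratio of 0.808 (0.722 to 0.905). The Tlr4 ratio was 0.655 (0.549 to 0.782) with each cell thinned to 1000 UMIs, which is past 1.5-fold, and 0.987 (0.724 to 1.37) among cells with 2000 to under 4000 UMIs.

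The accessory and co-receptor genes had slightly lower CPM in the cKO library. Ly86, the most abundant of the 10, had 2004 CPM in cKO and 2197 CPM in control microglia, a ratio of 0.912 (0.898 to 0.927). Cd180 had 193 CPM in cKO and 203 CPM in control microglia, a ratio of 0.954 (0.906 to 1.00) that lay from 0.811 to 1.05 over the alternatives. Cd14 had 291 CPM in cKO and 336 CPM in control microglia, a ratio of 0.866 (0.832 to 0.901). The ratio of Ly86, the gene that fell in bulk, stayed between 0.869 and 0.971 over the alternatives.

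Of the endosomal receptors, Tlr7 had 104 CPM in each library, a ratio of 1.00 (0.934 to 1.08), and Tlr13 had 85.3 CPM in cKO and 80.2 CPM in control microglia, a ratio of 1.06 (0.981 to 1.15). Tlr3 had 88.0 CPM in cKO and 97.7 CPM in control microglia, a ratio of 0.901 (0.837 to 0.971). Tlr9 was scarce, with 232 UMIs in all cKO cells (5.80 CPM) and 50 UMIs in all control cells (5.48 CPM), and its ratio of 1.06 has an interval from 0.776 to 1.47. Unc93b1 had 1064 CPM in cKO and 983 CPM in control microglia, a ratio of 1.08 (1.06 to 1.11). A difference in Tlr9 was not detectable at this depth.

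**Figure D4:**
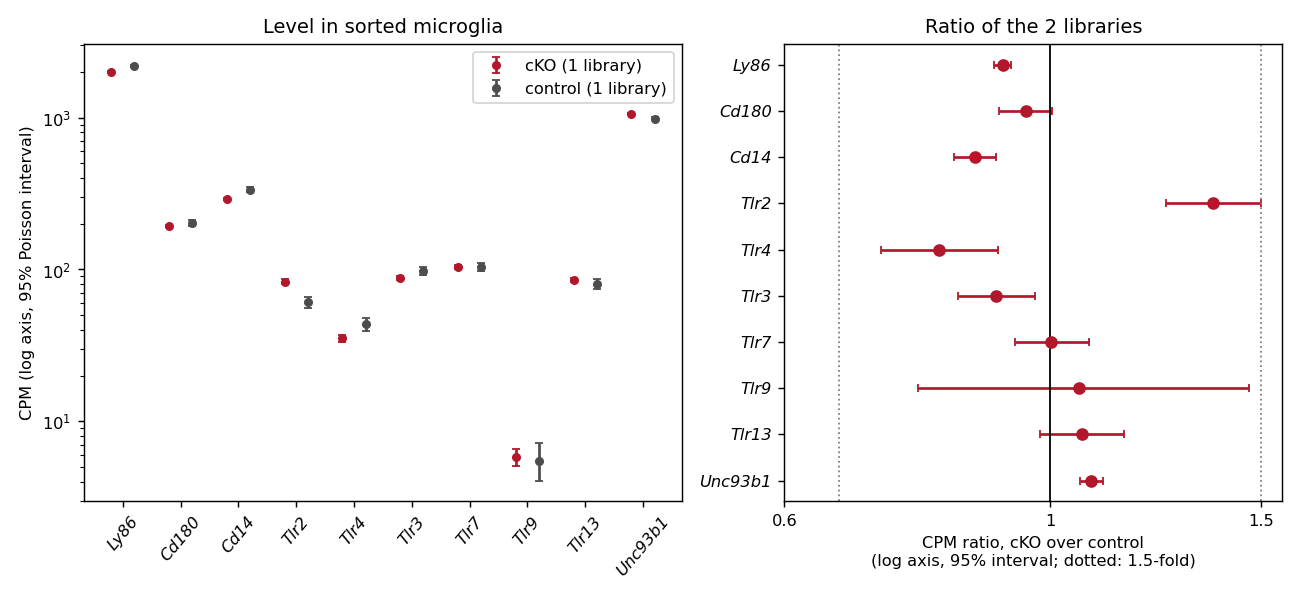
Left, CPM of the 10 genes in the cKO (red) and control (grey) library of sorted microglia on a log axis, with exact 95% Poisson intervals; right, their ratio with an exact 95% interval and dotted lines at 1.5-fold. Levels in the control library span from 5.48 CPM for Tlr9 to 2197 CPM for Ly86, and no ratio passes 1.5-fold.

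At 1000 UMIs per cell, Ly86 and Unc93b1 RNA was detected in most microglia and receptor RNA in few. A cell without such a UMI may still carry the RNA. With each cell thinned to 1000 UMIs, 8331 of 8874 cKO and 5655 of 6243 control cells were deep enough to stay. Ly86 was then found in 81.8% of cKO and 87.0% of control cells, Unc93b1 in 63.6% and 62.1%, Cd14 in 23.9% and 27.3%, and Cd180 in 18.4% and 17.7%. Tlr2 was found in 7.55% of cKO cells (exact interval 6.99 to 8.14) and 5.80% of control cells (5.21 to 6.44), and Tlr4 in 2.96% (2.61 to 3.35) and 4.53% (4.00 to 5.10). Tlr3, Tlr7 and Tlr13 lay between 7.87% and 9.84% in both libraries, and Tlr9 at 0.516% and 0.672%.

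Without thinning the shares were higher in the deeper cKO library, with Tlr2 in 27.6% of cKO and 8.09% of control cells and Cd14 in 61.8% and 36.4%. The sort held no population of a type known to lack these genes, so background from free RNA was read from genes of other cell types. After thinning the neuronal gene Snap25 was found in 0.060% of cKO and 0.018% of control cells, and the T cell gene Cd3e in none, which allows up to 0.0360% and 0.0531%. The Tlr9 shares rest on 43 cKO and 38 control cells, and neither expression nor a difference is read from them.

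Past 1.5-fold were a gene that folds these receptors and several that they induce. Hsp90b1 encodes gp96, the chaperone on which folding of most Toll-like receptors depends, and it had 416 CPM in cKO and 1203 CPM in control microglia, a ratio of 0.346 (0.337 to 0.354; 0.325 to 0.374 over 8 alternatives). Cnpy3, a co-chaperone of gp96 for these receptors, had 87.7 CPM in cKO and 118 CPM in control microglia, a ratio of 0.746 (0.697 to 0.800). In bulk forebrain Hsp90b1 had a log2 change of -0.10 (edgeR adjusted p = 0.756) and Cnpy3 of 0.12 (edgeR adjusted p = 0.715), from all cell types together. The cathepsin genes Ctsb and Ctsl, whose proteases cut endosomal receptors, had ratios of 1.19 and 1.18, and Ctss, which fell in bulk, had 0.932 (0.924 to 0.941).

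Of 10 induced targets at 20 CPM, 5 were lower in the cKO library by at least 1.5-fold and none higher, with a median log2 ratio of -0.52. Of all 6769 genes at that level 1.43% were lower and 1.88% higher by that much, the shares to set beside each count in this paragraph. The lowest were Ccl3 (157 CPM in cKO and 287 CPM in control, ratio 0.547) and Nfkbiz, an inducible NF-kB cofactor (60.2 CPM in cKO and 103 CPM in control, ratio 0.585). Ccl4 (0.619) and Ccl2 (0.630) were also past 1.5-fold, and so was Il6 (0.611). Il6 had 12.7 CPM in cKO and 20.7 CPM in control microglia, so it reached 20 CPM through the control library alone. Targets under 20 CPM in both libraries, among them Ccl5 and Cxcl10 with higher CPM in cKO, are outside this count. Tnf had a ratio of 0.996 and Icam1, an adhesion molecule, 1.15. Of 10 negative regulators 3 were lower, among them the phosphatase gene Dusp1 (0.531) and the repressor Atf3 (0.584), with Tnip2 (1.17) and Cyld (1.16) highest. Of 10 transcription factor genes Fos (0.218) and Jun (0.539) were lower, with Irf5 (1.23) and Relb (1.19) highest.

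The list of dissociation and early response genes, which holds Fos, Jun, Atf3, Dusp1 and Ier3 too, moved with these differences. Its summed level was 10708 CPM in cKO and 18481 CPM in control microglia. At least 1.5-fold lower were 10 of its 16 genes at 20 CPM, against 1.43% of all genes at that level. Among cells above the pooled median share of those UMIs, 1 of 10 induced targets was lower by that much, with a median of -0.26, and 0 of 10 negative regulators. Among cells at or under that median the counts were 5 and 2, and among cells with 2000 to under 4000 UMIs 3 and 2. The list used for the split holds the negative regulators Dusp1 and Atf3 and the induced target Ier3. The split thus acts on the ratios of these genes directly, and the counts on either side of the median are descriptions only. Ccl3 stayed between 0.527 and 0.643 in 8 alternatives. The part of the early response in these ratios was not tested.

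Signalling genes between receptor and nucleus were near equal. Of 14 adaptor and kinase genes at 20 CPM none differed by 1.5-fold, where 1.43% of all genes were lower and 1.88% higher. Their median log2 ratio was 0.09, and ratios ran from Irak4 (0.941) and Myd88 (0.953) to Ikbkb (1.23) and Traf3 (1.28). Among cells with 2000 to under 4000 UMIs 2 of the 14 were higher by 1.5-fold. The other receptors and partners at 20 CPM had ratios of 1.09 (Tlr1), 1.04 (Tlr12) and 1.02 (Ly96, the MD-2 partner of TLR4).

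**Figure D5:**
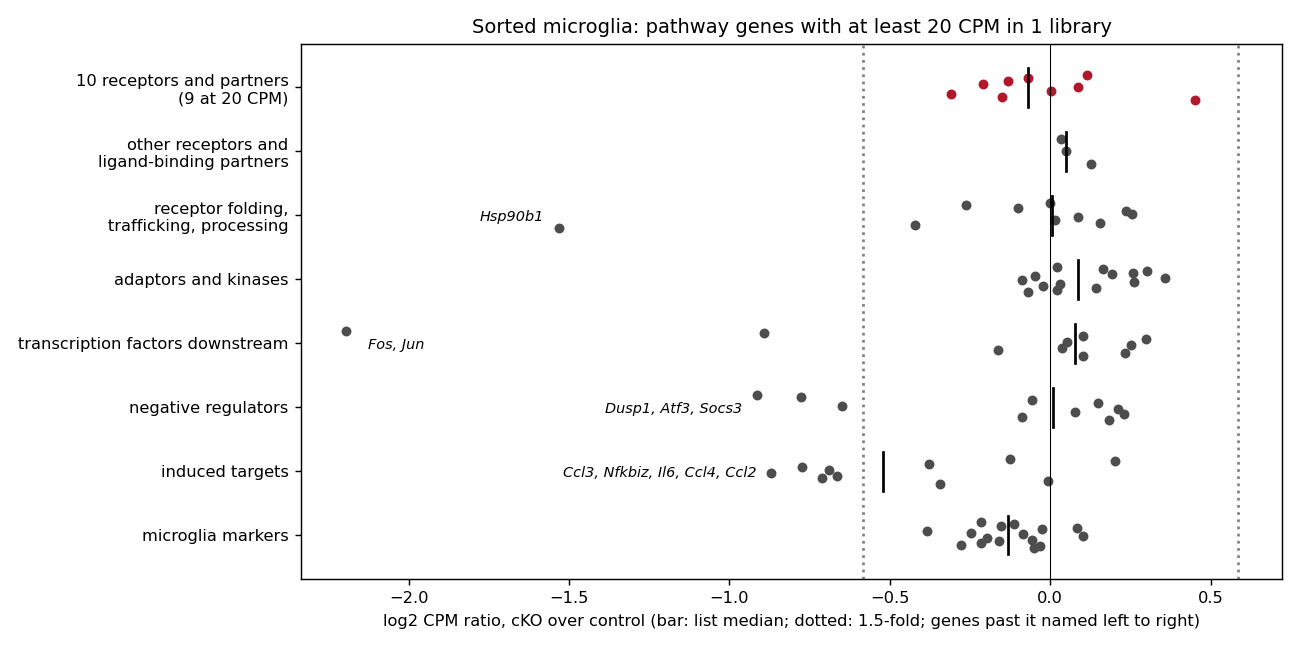
Log2 ratio of CPM, cKO over control, for genes with at least 20 CPM in 1 sorted library, by list, with list medians as bars and dotted lines at 1.5-fold. The 9 receptor and partner genes (red) lie within 1.5-fold, and the named genes of folding, transcription, feedback and induced targets lie below it.

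Receptor levels were also read across cells with little or much early response RNA. Thinned cells were cut at 8, 13 and 19 early response UMIs per 1000, and Cd14 stood at 259, 292, 326 and 307 CPM in cKO cells and at 298, 328, 326 and 350 CPM in control cells, from the lowest to the highest bin. Tlr2 stood at 78.5, 89.6, 81.4 and 63.2 CPM in cKO cells and at 38.4, 83.9, 62.0 and 60.0 CPM in control cells, the first control bin resting on 17 UMIs. Ly86 had lower CPM in cKO than in control cells in all 4 bins. Tlr4 did so too, at 33.0, 33.9, 24.6 and 22.6 CPM in cKO cells and at 33.9, 44.5, 53.7 and 43.4 CPM in control cells, with intervals that overlap in the first bins.

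Levels in bulk and in sorted microglia of control mice were also set side by side. Bulk RPKM per 1000 CPM of sorted microglia ran from 2.30 to 27.5 with a median of 4.90 over the 16 markers. The value was 1.96 for Ly86, 5.81 for Unc93b1, 6.45 for Cd180, 7.52 for Cd14, 12.1 for Tlr13, 12.2 for Tlr7, 13.2 for Tlr4 and 20.2 for Tlr2. Tlr3 (33.9) and Tlr9 (107) lay above all 16 markers, and these are the genes whose bulk log2 changes, -0.09 and 0.18, were nearest to 0. The highest marker was Sall1 (27.5), and the next was Fcrls (8.36). Tlr2, Tlr4, Tlr7 and Tlr13 lay above Fcrls too, with bulk log2 changes of -0.32, -0.65, -0.58 and -0.56. The Tlr9 value rests on 50 UMIs in the control library. The bulk values are scaled by exon length and the sorted values count 3′ ends. The bulk values also come from mice with amyloid and the sorted values from mice without, so this is a description only.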

How the data were processed

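The authors deposited a table of raw read counts per gene for the 13 bulk libraries and, per the file headers, UMI count matrices from Cell Ranger for the 2 sorted libraries. Bulk reads were aligned to mm10 with HISAT2 2.0.5 and counted with featureCounts 1.5.0-p3, per the submitters' processing notes. Bulk libraries were made from poly-A RNA, per the labels' protocols. For annotation release and strand setting, the sources used here give nothing.

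Here the bulk counts were tested with edgeR 4.0.16 (R 4.3.3), using its robust quasi-likelihood fit, TMM factors and its default expression filter, which kept 16956 of 54532 genes. Two-sided p-values were adjusted by the Benjamini-Hochberg method across every gene that passed the filter, and calls were made under 0.05. Means are given with the SD. RPKM divides CPM by the exon union of GENCODE M21. Precision was limited by 20 to 421 reads per member gene and library. The 36 pairs of replicates differed by more than sampling noise (chi-square per degree of freedom 2.75 to 24.05), so none was counted as a duplicate. Alternatives were DESeq2 1.42.0, other scalings, no filter, a replicate block and leaving out each library. The fit was tested on simulated data.

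Cells were kept from 500 detected genes upward unless mitochondrial UMIs exceeded 10%, and no clusters, cell types or doublets were called, so doublets remain. The UMIs of all kept cells were added up in each library, and the resulting CPM carry exact Poisson intervals (95%), and ratios and shares of cells with exact binomial-based 95% intervals. A count of 0 allows up to 3 counts. Beside Snap25 and Cd3e, a further gene read for background from free RNA is not reported here. The settings with cells above the median early response share and with 2000 to under 4000 UMIs were chosen after seeing the data. Promoters came from RefSeq on GRCm38.p6.

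The members and lists were chosen with earlier results of these data known. Named from each pathway list were genes past the adjusted p in bulk and the 2 highest and 2 lowest ratios in sorted microglia among genes with at least 20 CPM. For each member the best-matching genes by Pearson's r of log2 CPM after subtracting group means were named, from the first 3. Dissociation and early response genes, as a list, had no gene called in bulk by edgeR or DESeq2, 0 at an unadjusted p under 0.05 and a median log2 change of 0.08.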

Additional observations from a re-analysis of the deposited data

Results flagged for a closer look

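Cd180 stood at 5.57 CPM in the first cKO library, far above the other 6 cKO libraries, which ran from 2.92 to 4.01 CPM. Tlr13 stood at 6.53 CPM in the fifth control library, far above the other 5 control libraries, which ran from 3.25 to 4.44 CPM. Of 20 combinations of gene and group 2 had a library this far from the rest, and chance alone gives about 1 in 20. Without the fifth control library the log2 change of Tlr13 was -0.39, against -0.56 with all libraries. That library was also the highest of the controls for Ly86, Cd180, Cd14, Tlr2, Tlr4 and Tlr7 and in the mean of the microglia markers.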

How the results depend on the processing

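All 10 genes kept the direction of their bulk change in all 18 alternatives, and Ly86 kept its call in all 18, with log2 changes from -0.86 to -0.67. The number of these genes called lower was 1, and it was 2 with DESeq2 and without the filter on low counts, where Cd180 joined (adjusted p = 0.0138 with DESeq2 and 0.00490 with edgeR without the filter). It ranged from 1 to 2 when single libraries were left out, with Cd180 added without cKO library 1 or control library 6. Over all genes, the 47 called lower became 30 to 50 when single libraries were left out (30 without control library 5, 31 without cKO library 3 or 6). The 9 called higher became 19 with DESeq2, 23 without the filter and 3 to 23 when single libraries were left out (23 without cKO library 1). With the replicate number as a block 21 genes were lower and 1 higher, and Irf8 was not called (edgeR adjusted p = 0.0947). Deviations of same-numbered libraries had correlations of -0.32 to 0.17. What the numbers mark is not stated, and so few values cannot decide whether they pair libraries. In sorted microglia thinning to 1000 UMIs put 1 of the 9 genes with at least 20 CPM, Tlr4, past 1.5-fold, and the other 7 alternatives none of the 9. The ratio of Tlr9, which is below that level, ranged from 0.768 to 2.42, the last on 3 UMIs in the control library. Without single libraries the differences relative to the marker mean lay on both sides of 0 for Tlr4 (-0.20 to 0.0041), Tlr7 (-0.09 to 0.07) and Tlr13 (-0.03 to 0.14). They stayed below 0 for Ly86 (-0.29 to -0.14) and Cd180 (-0.22 to -0.07), and above 0 for Tlr2, Tlr3, Tlr9, Cd14 and Unc93b1. The cause of each of these changes was not tested.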

Other observations

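Some induced targets below 20 CPM had more UMIs per library in cKO microglia, and they were chosen after their values were seen. Ccl5, a T cell chemokine gene, had 13.8 CPM in cKO and 2.96 CPM in control microglia, a ratio of 4.65 (95% interval 3.16 to 7.12) on 551 and 27 UMIs. Cxcl10, an interferon-induced chemokine gene, had 16.8 CPM in cKO and 5.59 CPM in control microglia, a ratio of 3.00 (2.26 to 4.07), and Il1b 5.37 CPM in cKO and 2.41 CPM in control, a ratio of 2.23 (1.43 to 3.63). Tlr5, the flagellin receptor, had 14.6 CPM in cKO and 8.99 CPM in control microglia, a ratio of 1.62 (1.29 to 2.07). These ratios run opposite to those of Ccl3 and Ccl4 in the same libraries. In bulk forebrain Cxcl10 had 0.991 ± 0.456 CPM in cKO and 0.847 ± 0.255 CPM in control libraries (SD, n = 7 and 6), and Ccl5, below the filter, 0.336 ± 0.212 CPM in cKO and 0.129 ± 0.058 CPM in control libraries. Border macrophage markers summed to 16.0 CPM in the cKO library and 6.80 CPM in the control library. Most of this was Mrc1, with 12.6 CPM in cKO and 4.71 CPM in control. Ms4a7, Cbr2 and Folr2 were also higher in cKO, on few UMIs. Pf4 (ratio 0.798) and F13a1 (0 UMIs in cKO and 1 in control) went the other way, and Cd163 and Lyve1 were at 0. Without thinning, 37 cells of the deeper cKO library and 0 of the control library held 3 or more UMIs of these markers. The part of border macrophages was not tested.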
